A study of Mus musculus with 3 samples.

Results

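The Wnt ligands are a family of secreted glycoproteins, and 10 of their genes were followed here through mouse fracture callus: *Wnt2*, *Wnt2b*, *Wnt4*, *Wnt5a*, *Wnt5b*, *Wnt7b*, *Wnt9a*, *Wnt10b*, *Wnt11* and *Wnt16*. They were taken by gene symbol from the 32285 genes of the deposited single-cell count matrices. Each was read in 5 classes of callus cells, which were set by 1 marker gene each and not by any Wnt gene. The callus came from C57BL/6 mice with a femoral fracture, labelled as given no treatment and collected 7, 10 or 14 days after the fracture, with 1 library per day. The femur was cut at mid-shaft and pinned, with isoflurane and buprenorphine given for the operation. The callus was crushed and digested with collagenase, the marrow was cleaned out, and live cells without CD45, CD31 and Ter119 were sorted. The age of the mice and the number pooled into a library are not given in the sources used here, and both sexes were used in the study. With 1 library per day there is no replicate, so a difference between days cannot be told apart from a difference between libraries, and no test was made. Every interval below is a 95% interval that covers counting error only.

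The libraries held 9103, 8801 and 12984 cell barcodes, with 113127788, 144103160 and 195661880 unique molecular identifiers (UMIs) at day 7, day 10 and day 14. Between 29 and 42 barcodes were shared by any pair of libraries. After limits on genes, mitochondrial and hemoglobin UMIs, 7017, 6593 and 9853 cells were kept. Of these, 6.37% at day 7 had no UMI of *Ptprc*, the CD45 gene that the sort selected against, while 99.9% at day 10 and 98.2% at day 14 had none. Most of the day 7 library therefore went against its sort, and 5824 of its kept cells had 3 or more *Ptprc* UMIs. The members were read only in cells with *Ptprc* at 0, which numbered 447, 6587 and 9680.

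A cell was called high for a marker when the marker reached 0.25 of its 99th percentile in the cells of day 10 and day 14 and had at least 3 UMIs. The 5 markers were *Aspn* of fibroblastic osteoprogenitors, *Cnmd* of chondrocytes, *Col10a1* of hypertrophic chondrocytes, *Ifitm5* of osteoblasts and *Rgs5* of pericytes. In that order the classes held 1003, 2726, 380, 118 and 70 cells at day 10, and 2479, 1615, 864, 362 and 198 cells at day 14. A further 2290 and 4162 cells were high for none. Other markers of each cell type, which the rule did not use, stood highest in the class named for them. *Col2a1* was at 45440 and 39660 CPM (UMIs of a gene scaled to a class total of 1e+06 UMIs) in *Cnmd*-high cells, *Ihh* at 959 and 949 CPM in *Col10a1*-high cells, *Bglap* at 7845 and 4641 CPM in *Ifitm5*-high cells, and *Postn* at 4351 and 3322 CPM in *Aspn*-high cells. *Col10a1*-high cells kept cartilage RNA, with *Col2a1* at 26370 and 20380 CPM. Day 7 had 11, 56, 2, 6 and 0 cells in the 5 classes and is described apart from the other days.

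Wnt proteins are lipid-modified by Porcn, carried to the cell surface by Wls and read by Frizzled receptors. With the coreceptors Lrp5 and Lrp6 they stabilize β-catenin, which acts with TCF/LEF factors on target genes such as *Axin2*; with Ror receptors and planar polarity proteins they work without β-catenin. In the skeleton Wnt signals set the pace of growth plate cartilage, favor the osteoblast over the chondrocyte fate and raise bone mass, and secreted antagonists such as Dkk1 and sclerostin hold them back.

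The sequence just before the start of 5 members is shown because these 5 carried the main differences between classes. Each run holds the 100 bases upstream of the gene, 5′ to 3′ on the gene's strand, from RefSeq on GRCm38.p6, and capitals mark matches on either strand to the GC box (GGGCGG), the CCAAT box (CCAAT), the TATA box (TATAAA), the TCF/LEF motif (CTTTGAT) or the RUNX motif (TGTGGT). *Wnt4* and *Wnt5b* stood highest in *Col10a1*-high cells, *Wnt9a* and *Wnt16* in *Aspn*-high cells, and *Wnt11* in *Cnmd*-high and *Ifitm5*-high cells. The windows lie at chr4:137277389-137277488 (plus strand), chr6:119544348-119544447 (minus strand), chr11:59306828-59306927 (plus strand), chr6:22288127-22288226 (plus strand) and chr7:98835012-98835111 (plus strand), in the order printed. For *Wnt4* the run ends at the GENCODE M21 start of the gene, which lies upstream of the RefSeq start at position 137277635.
*Wnt4*: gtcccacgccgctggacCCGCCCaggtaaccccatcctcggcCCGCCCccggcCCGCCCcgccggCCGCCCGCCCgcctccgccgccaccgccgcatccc
*Wnt5b*: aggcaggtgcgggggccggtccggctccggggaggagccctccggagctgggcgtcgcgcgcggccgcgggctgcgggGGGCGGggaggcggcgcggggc
*Wnt9a*: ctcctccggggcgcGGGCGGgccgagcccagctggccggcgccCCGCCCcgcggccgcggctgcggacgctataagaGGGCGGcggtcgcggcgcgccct
*Wnt16*: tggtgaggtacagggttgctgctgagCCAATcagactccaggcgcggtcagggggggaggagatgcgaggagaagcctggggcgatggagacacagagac
*Wnt11*: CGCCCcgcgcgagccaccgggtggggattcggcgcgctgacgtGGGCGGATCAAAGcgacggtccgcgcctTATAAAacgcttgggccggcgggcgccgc

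Those of *Wnt4*, *Wnt5b* and *Wnt9a* were rich in G and C, at 85%, 87% and 85% of bases, against 74% for *Wnt11* and 63% for *Wnt16*. In the full 250 bases before the RefSeq start, *Wnt4* held 8 GC boxes and *Wnt9a* 5, while *Wnt16* held none and had 2 CCAAT boxes. At the first start listed for each gene, *Wnt11* was alone among these 5 in holding the TCF/LEF motif, which adjoins a GC box, and a TATA box, while another RefSeq start of *Wnt5b* also held the TCF/LEF motif. The capitals that open the *Wnt11* run are the end of a GC box that begins before it. Of all 32851 RefSeq windows of that length, 32.7% held a GC box, 33.8% CCAAT, 12.4% TATAAA, 3.21% the TCF/LEF motif and 14% the RUNX motif, which none of the 5 held. These matches describe letters only. RefSeq promoter windows were at hand for 8 of the 10 members, all but *Wnt5a* and *Wnt7b*.

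Among cells of the 5 classes and the unclassed cells, 3 members carried most of the Wnt UMIs. At day 10, cells with *Ptprc* at 0 held 5725 UMIs of *Wnt5a*, 5010 of *Wnt5b* and 2497 of *Wnt4*, and at day 14 they held 5218, 6326 and 3443. *Wnt11*, *Wnt16* and *Wnt10b* followed with 766 to 1337 UMIs per library, *Wnt9a* with 288 and 556, and *Wnt7b* with 183 and 247. *Wnt2b* had 23 and 52 UMIs and *Wnt2* had 5 and 8. For a level in CPM, the cells of a class were pooled before scaling. Levels are from 3′ end counts, which do not scale with gene length, although capture may still differ between genes. Summed over the 10 members, the level was highest in *Col10a1*-high cells on both days, at 232 CPM (interval 220 to 244) and 155 CPM. It was lowest in *Rgs5*-high cells, at 73.0 and 75.8 CPM. The mix of ligands differed more than the sum. Of the members' UMIs in *Col10a1*-high cells, *Wnt4* made up 48.8% at day 10 and 35.4% at day 14 and *Wnt5b* 37.8% and 47.8%, whereas in *Aspn*-high cells *Wnt5a* made up 38.8% on both days and *Wnt16* 24.9% and 16.7%. In *Rgs5*-high cells *Wnt5a* alone made up 71.6% and 62.1%.

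A member was called higher or lower in a class when its level there differed by 2-fold or more from that of the other 4 classes pooled, with at least 30 UMIs in the groups compared. The UMI minimum left 8 members at day 10 and 9 at day 14. The one added was *Wnt2b*, which passed only through its UMIs in *Aspn*-high cells and so had to differ there. *Wnt9a* also passed only with its *Aspn*-high UMIs on both days, the other 4 classes together being just short of the minimum. Its calls, higher in *Aspn*-high cells and lower in other classes, are thus not independent of the minimum and add no support to the counts below. At least 1 class was called higher for 7 members at day 10 and for 8 at day 14, *Wnt2b* included. For 6 members the same class was called higher on both days: *Wnt4*, *Wnt5b* and *Wnt7b* in *Col10a1*-high cells, *Wnt9a* and *Wnt16* in *Aspn*-high cells, and *Wnt11* in *Cnmd*-high cells. With all other *Ptprc*-free cells as the reference 3 of these remained, *Wnt4*, *Wnt9a* and *Wnt16*. The share of all genes called higher in any class was not computed. The shares given below are for 1 class each, so these counts over all classes are not read as particular to Wnt genes. By plain order of levels, the highest class was the same on both days for 5 members, *Wnt4*, *Wnt5a*, *Wnt5b*, *Wnt9a* and *Wnt16*. CPM are relative, and the median gene itself sat off 0: by 0.27 and 0.25 on the log2 scale in *Aspn*-high cells, -0.29 and -0.33 in *Cnmd*-high cells, -0.04 and -0.18 in *Col10a1*-high cells, -0.14 and -0.28 in *Ifitm5*-high cells, and 0.10 and 0.11 in *Rgs5*-high cells.

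**Figure D1:**
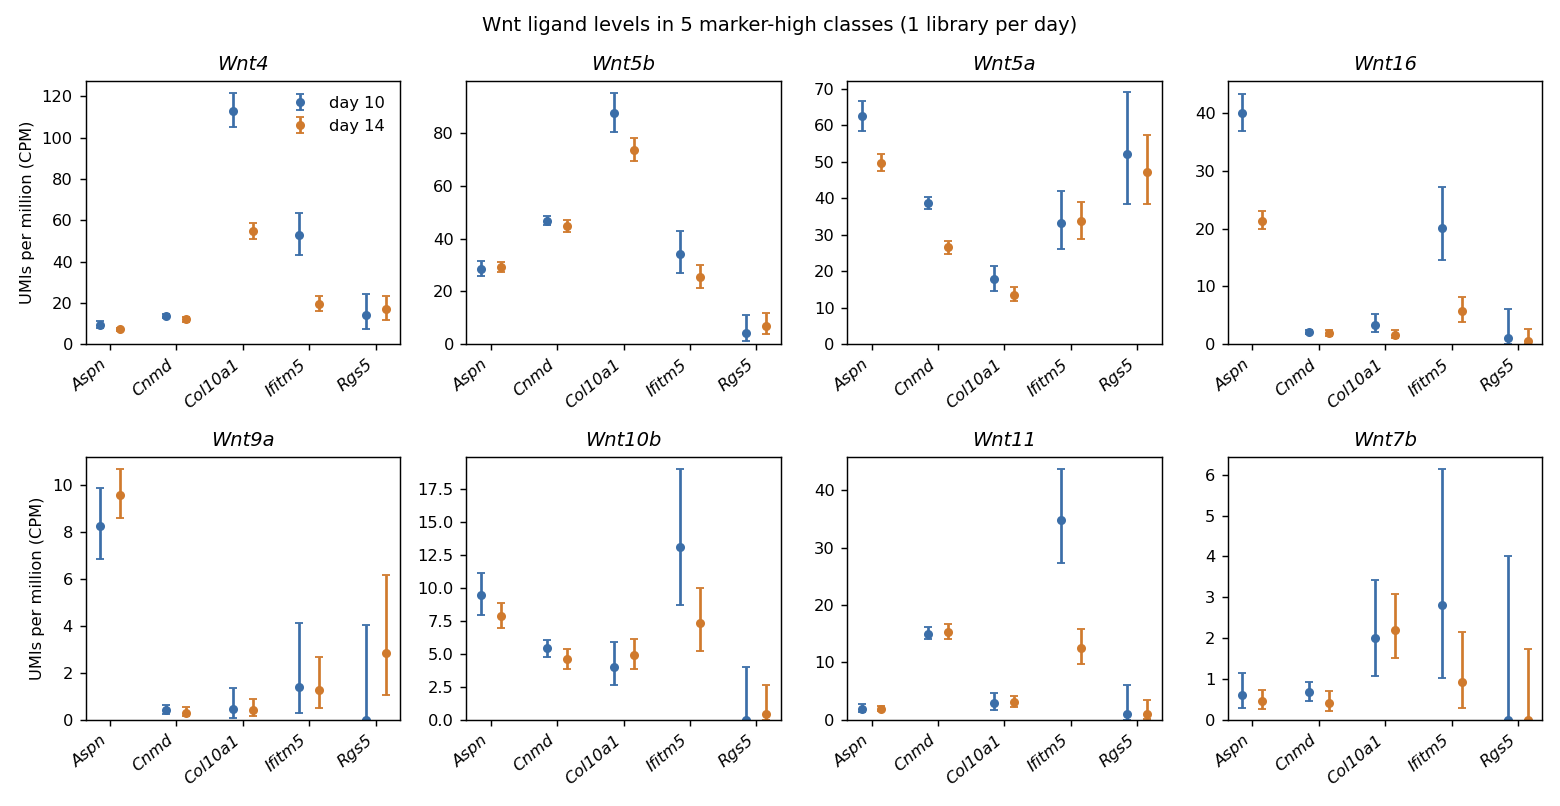
Level of 8 members by class in CPM, with day 10 and day 14 side by side and bars for the 95% Poisson interval of counting error; *Wnt2* and *Wnt2b* were too sparse to plot. *Wnt4* peaked in *Col10a1*-high cells at 113 and 54.8 CPM, and *Wnt16* in *Aspn*-high cells at 40.1 and 21.4 CPM.

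The hypertrophic, *Col10a1*-high cells were led by *Wnt4* and *Wnt5b*. Of 8 members tested on both days, 3 were called higher on both, beside 5.76% of all genes, and 4 were called lower, beside 12.5% of all genes. The 3 were *Wnt4*, *Wnt5b* and *Wnt7b*, and the 4 were *Wnt5a*, *Wnt9a*, *Wnt11* and *Wnt16*, so that *Wnt10b* was the one member on neither side. *Wnt9a* and *Wnt16* were called lower in *Cnmd*-high cells too, and for both genes the 2 classes could not be ordered on either day. The pooled reference took in *Aspn*-high cells, which held most of the classes' UMIs of both genes, so these 2 lower calls are not particular to *Col10a1*-high cells. Taken by day, 3 members were called higher at day 10, beside 10.2% of all genes, and 3 at day 14, beside 8.56%, and 4 and 5 were called lower, beside 16.2% and 19.6%. The lower call added at day 14 was *Wnt2b*, on 2 UMIs, and no weight is placed on it.

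*Wnt4*, which is known from kidney tubule and ovary formation and can speed the maturation of growth plate chondrocytes, stood at 113 CPM (interval 105 to 122, 732 UMIs) in *Col10a1*-high cells at day 10. The other classes ran from 52.6 CPM in *Ifitm5*-high cells through 14.2 in *Rgs5*-high and 13.5 in *Cnmd*-high cells to 9.46 in *Aspn*-high cells. At day 14 the levels were 54.8 CPM (interval 51.1 to 58.6, 825 UMIs), 19.3, 17.0, 11.99 and 7.09 CPM in the same order. *Wnt4* thus exceeded the pooled other classes by 3.03 on the log2 scale (interval 2.89 to 3.17) and by 2.399 (2.26 to 2.54). The intervals of *Rgs5*-high and *Cnmd*-high cells overlapped on both days, those of *Ifitm5*-high cells overlapped them at day 14 as well, and *Aspn*-high cells stayed below *Cnmd*-high cells. *Ifitm5*-high cells were themselves called higher at day 10, with a log2 difference of 1.30, but not at day 14, with 0.14.

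*Wnt5b*, a mostly β-catenin-independent ligand that is found in prehypertrophic cartilage, was plentiful in 4 of the 5 classes. It stood at 87.6 CPM (interval 80.5 to 95.1) in *Col10a1*-high, 46.9 in *Cnmd*-high, 34.3 in *Ifitm5*-high and 28.6 in *Aspn*-high cells at day 10. Day 14 gave 73.8 (69.5 to 78.3), 44.9, 25.4 and 29.2 CPM. The excess in *Col10a1*-high cells, of 1.06 and 1.07 on the log2 scale, was just past the 2-fold limit, and the lower ends of both intervals, 0.93 and 0.97, were inside it. The day 14 call of *Wnt5b* was kept by 7 of 10 alternative settings, with a lowest value of 0.96. *Ifitm5*-high and *Aspn*-high cells could not be ordered by their intervals. The *Rgs5*-high cells lay far below, at 4.36 CPM from 4 UMIs and 7.07 CPM from 15 UMIs.

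*Wnt7b*, which can act through β-catenin and has been tied to bone formation, was sparse. *Col10a1*-high cells held 13 and 33 UMIs of *Wnt7b*, or 2.01 and 2.19 CPM, against 0.713 and 0.457 CPM in the other classes pooled. The log2 differences were 1.49 (interval 0.49 to 2.396) and 2.26 (1.53 to 2.99). Most *Wnt7b* UMIs, 65.6% and 72.5%, were in cells high for no marker, which stood at 3.25 and 2.94 CPM, above every class. With all other *Ptprc*-free cells as the reference the differences of *Wnt7b* were 0.34 and 0.49 and neither was called.

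To compare cells of equal depth, each cell was thinned to 2000 UMIs. *Wnt4* was then seen in 16.4% of *Col10a1*-high cells at day 10 and 8.21% at day 14, against 1.63% and 1.49% of *Cnmd*-high cells and 1.80% and 1.78% of *Aspn*-high cells. *Wnt5b* was seen in 14.2% and 14.4% of *Col10a1*-high and 8.16% and 8.34% of *Cnmd*-high cells. Without thinning, 46.6% and 31.6% of *Col10a1*-high cells had a *Wnt4* UMI. As a background, *Ptprc*-positive cells of day 7, which should lack these genes, had *Wnt4* in 0.22% and *Wnt5b* in 0.05% of 5564 thinned cells. That library held few skeletal cells. In the day 14 library itself, 0 of 75 thinned cells with 3 or more *Ptprc* UMIs had either gene (interval up to 4.8%), but unthinned 4% had *Wnt4* and 10.7% *Wnt5b*. Their levels were 12.4 CPM of *Wnt4* (interval 5.96 to 22.9, 10 UMIs) and 18.6 CPM of *Wnt5b* (10.4 to 30.7, 15 UMIs), and the day 14 levels of *Wnt4* in every class but *Col10a1*-high, and of *Wnt5b* in *Aspn*-high, *Ifitm5*-high and *Rgs5*-high cells, were not above these intervals. Before thinning, the median depth of the cells used was 5451 UMIs in the *Ptprc*-positive cells of day 7 and 8071 at day 14. It was 17410 and 17690 UMIs in *Col10a1*-high cells of day 10 and day 14. Among thinned *Col10a1*-high cells with *Wnt4*, 11.5% at day 10 and 14.3% at day 14 also had *Wnt5b*, beside 14.7% and 14.4% of those without *Wnt4*, and the intervals overlapped on both days.

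The fibroblastic, *Aspn*-high cells had the highest levels of *Wnt16* and *Wnt9a* among the classes. Of the 8 members tested on both days, these 2 were called higher, beside 10.9% of all genes, and *Wnt4* and *Wnt11* were called lower, beside 6.49% of all genes. *Wnt9a* passed the UMI minimum only through this class, so the count of 2 is not read as more than the share of all genes. By day, 2 members at day 10 and 4 at day 14, *Wnt2b* among them, were called higher, beside 15.6% and 14.8% of all genes, and 2 and 3 lower, beside 8.97% and 9.82%. *Wnt16*, which is known as a periosteal and cortical bone ligand whose loss thins the cortex, stood at 40.1 CPM (interval 36.9 to 43.4, 593 UMIs) at day 10 and 21.4 CPM (19.9 to 23.0, 759 UMIs) at day 14. The pooled other classes stood at 2.83 and 2.10 CPM, a 14.2-fold and 10.2-fold difference. *Ifitm5*-high cells came next, with 20.2 CPM (14.6 to 27.2) and 5.70 CPM, above *Cnmd*-high cells with 2.09 and 1.84 CPM and *Col10a1*-high cells with 3.40 and 1.59 CPM. Thinned to 2000 UMIs, 7.82% and 3.85% of *Aspn*-high cells had a *Wnt16* UMI, against 0.33% and 0.37% of *Cnmd*-high cells.

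*Wnt9a*, which takes part in joint formation and keeps prospective joint cells out of the cartilage fate, stood out in *Aspn*-high cells among the 5 classes. It met the UMI minimum only with the UMIs of that class. *Aspn*-high cells stood at 8.25 CPM (interval 6.85 to 9.85, 122 UMIs) and 9.57 CPM (8.58 to 10.7, 339 UMIs), while the other classes pooled were at 0.437 and 0.516 CPM. The ratio was 18.9-fold and 18.6-fold, with log2 intervals of 3.63 to 4.90 and 3.67 to 4.82. Cells high for no marker held 48.3% and 33.8% of all *Wnt9a* UMIs, and with all other *Ptprc*-free cells as the reference the log2 difference of *Wnt9a* was 2.29 and 2.37, below that of *Wnt16*, 3.55 and 3.16. *Cnmd*-high cells held 21 and 10 UMIs of *Wnt9a*, although they were the larger class at day 10. Thinned to 2000 UMIs, 1.90% and 2.23% of *Aspn*-high cells had a *Wnt9a* UMI, against 0.04% and 0.12% of *Cnmd*-high cells.

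*Wnt5a*, the leading β-catenin-independent ligand and a guide of limb outgrowth, was the most abundant member in *Aspn*-high cells, at 62.5 CPM (interval 58.6 to 66.7) and 49.7 CPM. The log2 difference from the other classes was 0.77 at day 10 and 1.02 at day 14, so it was called only at day 14, and 4 of 10 alternative settings kept that call, with values from 0.70 to 1.18. *Rgs5*-high cells stood beside them, at 52.3 CPM (38.6 to 69.3) and 47.1 CPM, and the 2 classes could not be ordered on either day. *Col10a1*-high cells had the lowest *Wnt5a* level, 17.8 and 13.6 CPM, below the other classes by 1.30 and 1.49 on the log2 scale. *Wnt5a* and *Wnt4* therefore had opposite extremes: the class highest for *Wnt4* was the class lowest for *Wnt5a*.

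*Wnt10b*, a β-catenin-dependent ligand that favors osteoblasts over fat cells, was within 2-fold of the other classes in *Aspn*-high, *Cnmd*-high and *Col10a1*-high cells on both days. It stood at 9.46 and 7.88 CPM in *Aspn*-high, 5.41 and 4.58 in *Cnmd*-high, 4.02 and 4.91 in *Col10a1*-high and 13.2 (interval 8.74 to 19.0, 28 UMIs) and 7.36 in *Ifitm5*-high cells. *Wnt10b* was called higher in *Ifitm5*-high cells at day 10, by 1.13 on the log2 scale (0.52 to 1.68), and was within 2-fold there at day 14, at 0.32. The *Ptprc*-positive cells of day 14 stood at 2.49 CPM of *Wnt10b* on 2 UMIs, with an interval up to 8.98 CPM that takes in its level in every class of that day.

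*Wnt11*, which works mainly without β-catenin in cell movement and polarity, was a ligand of the cartilage and bone classes. Among *Cnmd*-high cells, *Wnt11* was the only one of the 8 members called higher on both days, beside 3.3% of all genes, and *Wnt9a* and *Wnt16* were called lower, beside 13.5%. By day, it was the 1 member called higher beside 5.01% and 4.5% of all genes, and 3 and 4 members were called lower beside 17.2% and 18.8%. The 4 at day 14 took in *Wnt2b*, on 7 UMIs, and no weight is placed on that call. For *Wnt11*, *Cnmd*-high cells stood at 15.0 CPM (interval 14.0 to 16.1, 786 UMIs) and 15.4 CPM (14.1 to 16.7, 516 UMIs). *Ifitm5*-high cells had 34.8 CPM (27.3 to 43.6, 74 UMIs) at day 10, above *Cnmd*-high cells, and 12.5 CPM (9.72 to 15.9) at day 14, when the 2 could not be ordered. *Col10a1*-high cells, which follow *Cnmd*-high cells in cartilage maturation, were at 2.94 and 3.12 CPM, and *Aspn*-high cells at 1.96 and 1.95 CPM. The log2 difference of *Wnt11* in *Cnmd*-high cells was 1.57 (interval 1.30 to 1.86) at day 10 and 2.26 (2.02 to 2.51) at day 14, and with all other *Ptprc*-free cells as the reference the day 10 value was 0.74 and not called. The level of *Wnt11* was thus low in the class where *Wnt4* was highest.

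The osteoblast, *Ifitm5*-high cells had no member called higher on both days, beside 3.43% of all genes. At day 10 alone, 5 of the 8 members tested were called higher, *Wnt4*, *Wnt7b*, *Wnt10b*, *Wnt11* and *Wnt16*, beside 6.38% of all genes. *Wnt7b* among them rested on 6 UMIs. The count fell to 2, *Wnt7b* and *Wnt11*, when cells were called high at a lower cut, and to 3 with each cell given equal weight, in thinned cells or with all other *Ptprc*-free cells as the reference, so *Wnt11* alone was called under all of these. At day 14 none of the 9 tested was called higher, beside 5.2% of all genes, and *Wnt9a* was called lower, beside 20.4%. No member was called lower at day 10, beside 15.5% of all genes. The median difference of the members in *Ifitm5*-high cells was 1.09 on the log2 scale at day 10, where the median over all genes was -0.14. The class held 118 cells at day 10.

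The pericyte, *Rgs5*-high cells had no member called higher on either day, beside 17.7% and 15.2% of all genes. On both days *Wnt5b*, *Wnt11* and *Wnt16* were called lower there, 3 of 8 members beside 6.59% of all genes. By day, 3 members at day 10 and 4 at day 14, with *Wnt10b* added, were called lower beside 10.8% and 11.6%. *Wnt11* and *Wnt16* rested on 1 or 2 UMIs each in this class, so that the log2 differences of *Wnt11*, -3.46 and -3.05, had intervals reaching up to -0.98 and -1.20. *Wnt5a* made up most of the Wnt UMIs of *Rgs5*-high cells, 48 at day 10 and 100 at day 14. *Wnt4* followed with 13 and 36 UMIs, at 14.2 and 17.0 CPM.

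The 2 remaining members were barely seen. *Wnt2b*, a close relative of *Wnt2* with a role in lung and eye development, had most of its UMIs among the classes in *Aspn*-high cells at day 14. It had 23 UMIs or 0.649 CPM there against 9 UMIs or 0.160 CPM in the other classes. No weight is placed on its calls in any class. At day 10, *Wnt2b* had 4 UMIs each in *Aspn*-high and *Cnmd*-high cells. Its annotated body overlaps another gene on the same strand, so its counts are uncertain. All 5 *Wnt2* UMIs of day 10 were in cells high for no marker, and at day 14 *Aspn*-high cells held 5 of 8. No cell held more than 1 UMI of *Wnt2* or *Wnt2b*.

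**Figure D2:**
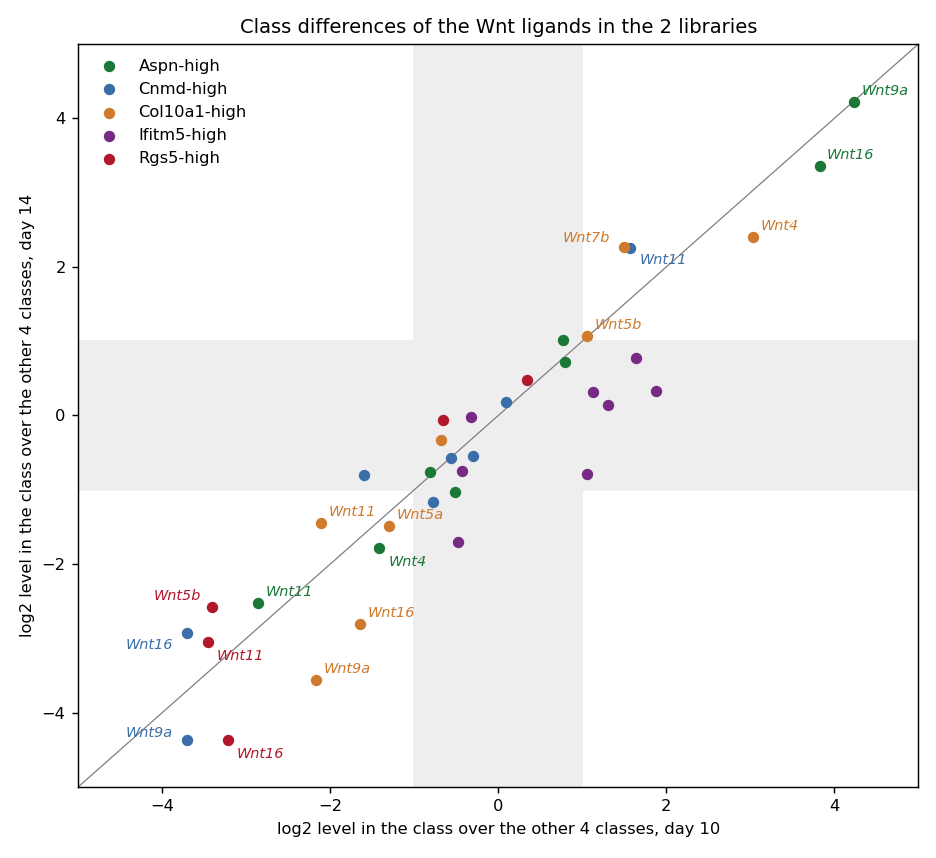
Each of 37 points is 1 member in 1 class, with its log2 level over the other 4 classes pooled at day 10 on the horizontal axis and at day 14 on the vertical axis; grey marks differences within 2-fold, and pairs with a class at 0 UMIs are left out. Named points were called in the same direction on both days, among them *Wnt9a* in *Aspn*-high cells at 4.24 and 4.21 and *Wnt4* in *Col10a1*-high cells at 3.03 and 2.399.

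Cells of a class were then split into a lower, a middle and an upper group of nearly equal size by a second marker, to see whether a ligand was even within it. The *Col10a1*-high cells were ordered by *Mmp13*, the collagenase of the last stage of cartilage breakdown, which gave 126, 128 and 126 cells at day 10 and 288 cells in each at day 14. *Wnt4* stood at 21.4, 153 and 171 CPM from the lower to the upper group at day 10, and at 23.1, 49.5 and 93.6 CPM at day 14. *Wnt5b* ran the other way, from 138 through 81.8 to 39.4 CPM and from 95.9 through 76.9 to 47.2 CPM. *Wnt5a* fell too, from 30.7 to 8.54 CPM at day 10, and stood at 19.1 and 10.0 CPM at day 14.

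The upper group by *Mmp13* exceeded the lower by 3.00 on the log2 scale for *Wnt4* at day 10 (interval 2.56 to 3.46) and by 2.02 at day 14 (1.73 to 2.32). *Wnt5b* differed by -1.81 (-2.18 to -1.46) and by -1.02 (-1.25 to -0.80). Over all genes, 11.3% at day 10 and 6.77% at day 14 were called higher in this comparison, and 6.03% and 4.01% were called lower. The UMI minimum left 3 members to test at day 10 and 5 at day 14. *Wnt4* was called higher on both days, *Wnt5b* lower on both days and *Wnt5a* lower at day 10 only. The day 14 call of *Wnt5b* was kept by 3 of 7 alternative settings, chosen after seeing the data, with values from -1.03 to -0.83. *Wnt7b* ran from 0.445 through 1.42 to 4.27 CPM at day 10 and from 1.12 through 1.90 to 3.601 CPM at day 14, on too few UMIs to be called. Median depth was close, at 17990 and 16520 UMIs per cell in the lower and upper group of day 10, and at 18460 and 17700 UMIs at day 14.

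Other genes of these *Mmp13* groups moved as well, and their part in the result for *Wnt4* and *Wnt5b* was not tested. *Col10a1* stood at 39090, 39650 and 32940 CPM from the lower to the upper group at day 10 and at 39280, 39220 and 31680 CPM at day 14, so the class marker itself did not rise with *Mmp13*. *Col2a1* went from 42020 CPM in the lower to 14290 CPM in the upper group at day 10 and from 30090 to 13340 CPM at day 14, while *Spp1*, osteopontin, went from 6855 to 40360 and from 19860 to 41950 CPM. By *Ihh*, the signal of prehypertrophic cells, the same class differed less: the upper group had *Wnt4* at 151 and 67.5 CPM and the lower at 96.2 and 47.0 CPM, within 2-fold on both days, beside 1.46% and 1.78% of all genes called higher.

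In *Cnmd*-high cells those with most *Ihh* were richer in *Wnt5b*. The upper group by *Ihh*, where 58.0% and 78.1% of cells had an *Ihh* UMI against none in the other groups, stood at 67.7 and 66.7 CPM of *Wnt5b*, and the lower group at 34.7 and 30.4 CPM. The log2 difference was 0.96 at day 10 and 1.13 at day 14 (interval 0.95 to 1.32), called at day 14 only. *Wnt4* did likewise, with 18.9 and 11.5 CPM at day 10 and 20.7 and 6.54 CPM at day 14, the latter a log2 difference of 1.66. Of 6 members tested at day 10, 1 was called higher, neither *Wnt5b* nor *Wnt4*, beside 1.38% of all genes. At day 14, 2 of 6 were called higher, *Wnt5b* and *Wnt4*, beside 1.95% of all genes. By *Ucma*, a marker of less mature cartilage, *Wnt4*, *Wnt5a*, *Wnt5b* and *Wnt11* all stood lower in the upper group on both days. *Wnt5b* was at 62.1 CPM in the lower and 35.4 in the upper group at day 10 and at 61.1 and 29.6 CPM at day 14. The corresponding values of *Wnt11* were 21.6 and 10.6 CPM, then 18.2 and 10.7 CPM. *Wnt4*, *Wnt5a* and *Wnt11* were called lower at day 10, beside 3.27% of all genes, and *Wnt5b* and *Wnt16* at day 14, beside 2.59%.

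**Figure D3:**
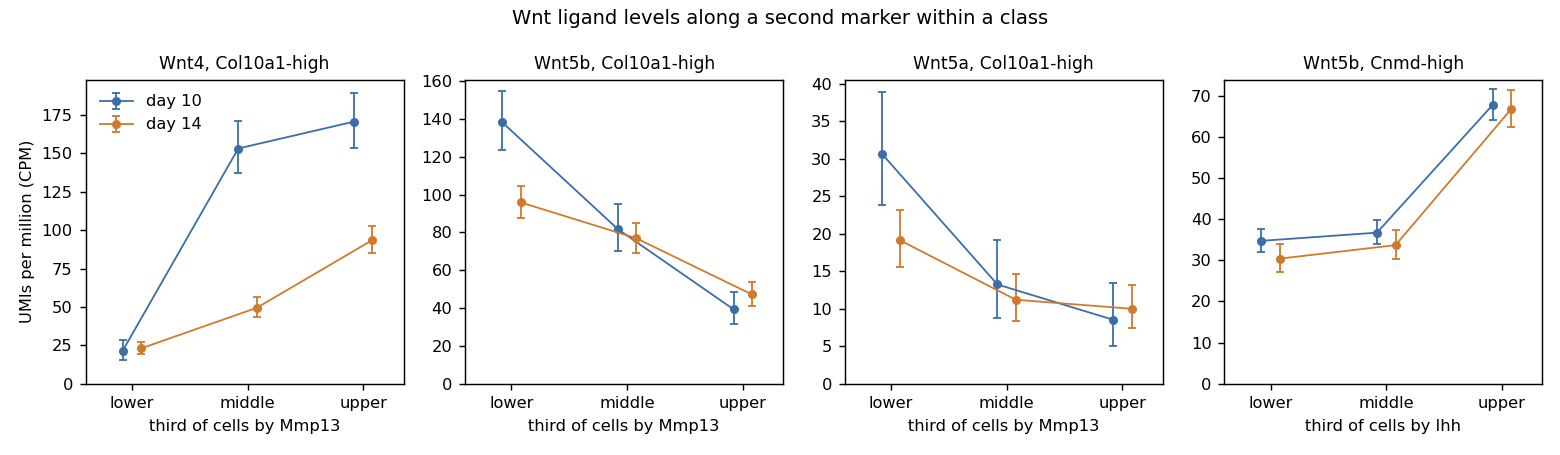
Level in CPM, with 95% Poisson intervals, of *Wnt4*, *Wnt5b* and *Wnt5a* in *Col10a1*-high cells split by *Mmp13*, and of *Wnt5b* in *Cnmd*-high cells split by *Ihh*, at day 10 and day 14. With more *Mmp13*, *Wnt4* went from 21.4 to 171 CPM at day 10 while *Wnt5b* went from 138 to 39.4 CPM.

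Within *Aspn*-high cells, *Wnt16* was uneven, and not in the same way on both days. By *Acta2*, the smooth muscle actin of contractile cells, the lower group had 67.4 CPM of *Wnt16* and the upper 20.2 CPM at day 10, a log2 difference of -1.74 (interval -2.07 to -1.42), beside 4.97% of all genes called lower. At day 14 the values were 22.7 and 18.8 CPM, within 2-fold, beside 2.36% called lower. By *Igf1*, the growth factor of osteoprogenitors, *Wnt16* had 53.8 CPM in the lower and 24.0 CPM in the upper group at day 10, and 19.97 and 29.5 CPM at day 14. *Wnt4* by *Igf1* was lower in the upper group on both days, at 4.98 against 16.0 CPM and 4.83 against 11.02 CPM, beside 3.66% and 3.01% of all genes called lower. *Wnt10b* by *Igf1* was at 14.4 CPM in the lower and 6.06 in the upper group at day 10, and *Wnt4* by *Acta2* at 12.3 and 5.90 CPM, both called lower at that day only. *Wnt5b* by *Postn* stood at 20.4 CPM in the lower and 44.2 CPM in the upper group at day 10, where it was called higher, beside 1.91% of all genes, and at 25.3 and 35.6 CPM at day 14, within 2-fold, beside 1.29%. *Wnt9a* stayed within 2-fold in all 3 splits: by *Igf1*, *Acta2* or *Postn* its groups ran from 5.55 to 9.87 CPM at day 10 and from 7.64 to 11.2 CPM at day 14.

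Cycling cells of the *Aspn*-high class, those with a UMI of *Mki67* or *Top2a*, were poor in *Wnt16* on both days. They stood at 18.3 CPM against 42.9 CPM in the other cells at day 10, and at 4.65 CPM (8 UMIs) against 22.3 CPM at day 14. The log2 differences of *Wnt16* were -1.23 (interval -1.80 to -0.71) and -2.26 (-3.48 to -1.27), beside 4.76% and 3.93% of all genes called lower. Median depth was 16580 UMIs in the 103 cycling and 14580 in the 900 other cells at day 10, and 15430 in 114 and 14340 in 2365 cells at day 14.

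In *Ifitm5*-high cells, *Wnt11* was called lower with more *Dmp1* on both days and with more *Bglap* at day 10 only. By *Dmp1*, a gene of cells turning into osteocytes, *Wnt11* stood at 43.8 CPM in the lower and 12.7 CPM in the upper group at day 10, and at 20.7 and 7.55 CPM at day 14. The log2 differences were -1.79 (interval -3.06 to -0.67) and -1.45 (-2.46 to -0.53), beside 4.24% and 4.66% of all genes called lower. Of 4 members tested by *Dmp1*, 1 was called lower at day 10 and 2 at day 14, so *Wnt11* was not alone at day 14. By *Bglap*, osteocalcin, *Wnt11* was at 51.5 and 9.12 CPM at day 10, beside 5.8% of all genes called lower, and at 12.5 and 9.80 CPM at day 14, beside 2.21%. At day 14, 0 of 4 members tested by *Bglap* were called.

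Between day 10 and day 14, levels within a class moved little for most members that could be tested. In *Aspn*-high, *Cnmd*-high and *Rgs5*-high cells 7, 8 and 2 members reached the UMI minimum, and none was called in either direction. Beside them, 2.11% of all genes were called higher and 2.85% lower in *Aspn*-high cells, 1.68% and 2.26% in *Cnmd*-high cells, and 3.3% and 2.05% in *Rgs5*-high cells. With 2 members tested, *Rgs5*-high cells say little about change between the days. The nearest was *Wnt16* in *Aspn*-high cells, with a log2 difference of -0.90 (interval -1.06 to -0.75). In *Col10a1*-high cells *Wnt4* was called lower at day 14, by 1.05 on the log2 scale (interval of the difference -1.19 to -0.90), and so was *Wnt16*, on 22 and 24 UMIs, beside 1.75% of all genes called lower and 1.91% called higher. Under 9 alternative settings the change of *Wnt4* ran from -1.14 to -0.84 and was called under 4, and that of *Wnt16* was called under 6 and was 0.00 in cells thinned to 2000 UMIs. *Wnt5b* in the same cells moved by -0.25 (-0.39 to -0.10).

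In *Ifitm5*-high cells, 3 of the 6 members tested were called lower at day 14, *Wnt4*, *Wnt11* and *Wnt16*, beside 1.8% of all genes called lower and 2.08% called higher. *Wnt4* went from 52.6 to 19.3 CPM, *Wnt11* from 34.8 to 12.5 CPM and *Wnt16* from 20.2 to 5.70 CPM. *Wnt5a* stayed at 33.4 and 33.7 CPM. The 3 *Ifitm5*-high differences were -1.45, -1.47 and -1.82 on the log2 scale, and that of *Wnt4* was called under 7 of 9 alternative settings. The summed level of 5 chondrocyte markers in this class was 6689 CPM at day 10 and 3502 CPM at day 14, that of 4 hypertrophic markers 2644 and 2011 CPM, and that of 6 osteoblast markers 78140 and 69450 CPM, with no marker at 0. Their part in the result was not tested. A summed list of 5 neutrophil genes was below 7 CPM in every class at day 10 and between 26.8 and 237 CPM at day 14.

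At day 7 the 447 cells with *Ptprc* at 0 gave *Wnt5a* 52.0 CPM (253 UMIs), *Wnt5b* 29.8, *Wnt11* 12.7, *Wnt4* 10.9 and *Wnt10b* 8.22 CPM. *Wnt16* stood at 3.70 CPM, and *Wnt7b* and *Wnt9a* at 1.64 CPM on 8 UMIs each. *Wnt2* and *Wnt2b* had 0 UMIs, which taken as 3 UMIs of the total of these cells allows a level of up to 0.617 CPM. In the 56 *Cnmd*-high cells of day 7, *Wnt5a* was at 36.9, *Wnt5b* at 36.0 and *Wnt11* at 16.7 CPM, beside 38.8, 46.9 and 15.0 CPM in the same class at day 10. Of the 447 cells, 372 were high for no marker, with a median of 3513.5 UMIs against 19519.5 in the *Cnmd*-high cells. A summed list of 5 neutrophil genes stood at 31620 CPM in those 372 cells and at 1933 CPM in the *Cnmd*-high cells. The levels over all 447 cells take in the 372, and how many of these were blood cells without a *Ptprc* UMI was not tested.

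Cells high for no marker made up 34.8% of the *Ptprc*-free cells at day 10 and 43.0% at day 14, and their ligand levels lay between those of the classes for most members. *Wnt4* stood at 21.5 and 29.98 CPM there and *Wnt5b* at 40.4 and 41.4 CPM. *Wnt5a* stood at 68.7 CPM at day 10, above every class, and at 34.2 CPM at day 14. Also above every class were *Wnt7b* on both days and the sparse *Wnt2* and *Wnt2b* at day 10. Splits of these cells by *Acan*, *Sp7* and *Mmp13* were chosen after the values had been seen. With more *Mmp13*, *Wnt4* was at 46.5 against 8.58 CPM and at 58.2 against 11.4 CPM, log2 differences of 2.44 and 2.36, beside 4.91% and 5.95% of all genes called higher. *Wnt7b* was called higher as well, at 5.07 against 1.88 CPM and at 4.64 against 1.10 CPM. *Wnt11* was called lower, at 5.07 against 15.4 CPM and 2.60 against 15.5 CPM, beside 4.23% and 4.44%. At day 10, 2 of 8 members tested were called lower by *Mmp13*, so *Wnt11* was not the only one.

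Split by the cartilage gene *Acan*, cells without a class separated the ligands further. *Wnt5b* was at 66.8 CPM in the upper and 16.1 CPM in the lower group at day 10, and at 62.5 and 23.8 CPM at day 14. *Wnt11* was called higher beside it, at 17.7 against 3.93 CPM and 13.3 against 3.83 CPM, where 6.17% and 5.1% of all genes were called higher. *Wnt9a* was called lower, at 0.645 against 9.62 CPM and 1.34 against 5.54 CPM, where 15.7% and 12.4% of all genes were called lower. *Wnt5a* was called lower at day 10 only, at 42.1 against 125 CPM, and stood at 25.0 and 47.3 CPM at day 14. Of 8 members tested by *Acan*, 3 were called lower at day 10 and 3 at day 14, so not all of them are named here. By *Sp7*, osterix, the upper group was richer in *Wnt11*, at 18.4 against 4.53 CPM and 11.7 against 4.74 CPM, beside 1.93% and 1.26% of all genes called higher. At day 10, 2 of 8 members tested were called higher by *Sp7*, *Wnt11* among them, and 1 was called lower.

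The genes with the pattern most like each member were taken over the 10 sums of 5 classes and 2 days, by Pearson's r of log2(CPM + 1) among 9531 genes. The 10 sums come from 2 libraries and share their depth within a class, so r is a description. *Wnt5b* came closest to *Ooep* (r = 0.991), *Lmo4* (0.985) and *Nebl* (0.983), and *Wnt16* to *Sncaip* (0.984), *Nxn* and *Sun1*. *Wnt4* was nearest to *Tm7sf2* (0.948), *Irx3* and *Chst1*, *Wnt5a* to *Mtdh* (0.973), *Ubqln2* and *5430416N02Rik*, and *Wnt9a* to *Rpp25l*, *Fbxo3* (0.958) and *Fbxl7*. *Wnt10b* was nearest to *St3gal5* (0.980), *Ephb2* and *Gja1*, *Wnt11* to *Dixdc1* (0.962), *Nrtn* and *Sgms2*, and *Wnt7b*, on 131 UMIs, to *Ip6k1* (0.952), *Ddi2* and *Utp23*. Between members, r was highest for *Wnt4* with *Wnt7b*, at 0.788. *Wnt5b* with *Wnt7b* and *Wnt10b* with *Wnt16*, both at 0.757, *Wnt9a* with *Wnt16* at 0.727 and *Wnt5b* with *Wnt10b* at 0.712 followed. It was lowest for *Wnt4* with *Wnt5a*, at -0.779, and *Wnt5a* with *Wnt5b*, at -0.706.

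Of the other 9 mouse Wnt genes, none reached the UMI minimum in a comparison of classes. *Wnt6* had 42 and 53 UMIs in *Ptprc*-free cells at day 10 and day 14, *Wnt1* 13 and 30, and *Wnt10a* 4 and 9. *Wnt3*, *Wnt3a*, *Wnt7a*, *Wnt8a*, *Wnt8b* and *Wnt9b* had at most 3.

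The machinery that releases and reads these ligands was uneven too, and its lists are given by calls made on both days. *Wls*, the Wnt carrier, stood at 290 and 297 CPM in *Aspn*-high cells, 2.85-fold and 2.52-fold over the other classes, and *Porcn*, the Wnt acyltransferase, at 23.9 and 24.2 CPM, 4.77-fold and 4.54-fold over them. Both genes were called higher in *Aspn*-high cells, beside 10.9% of all genes, and lower in *Cnmd*-high cells, beside 13.5%. The class with *Wnt16* and *Wnt9a* was thus also the class with most RNA for Wnt release.

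Of 16 receptor genes, 15 were tested, and 6, 1, 1, 2 and 2 were called higher in *Aspn*-high, *Cnmd*-high, *Col10a1*-high, *Ifitm5*-high and *Rgs5*-high cells, beside 10.9%, 3.3%, 5.76%, 3.43% and 10.7% of all genes. In the same order 1, 7, 7, 3 and 3 were called lower, beside 6.49%, 13.5%, 12.5%, 10.2% and 6.59% of all genes. *Fzd1* stood at 54.2 CPM at day 14 in *Aspn*-high cells, 5.51-fold over the other classes, and *Fzd8* at 49.7 and 43.6 CPM. *Fzd9* was the one receptor called higher in *Cnmd*-high cells, with 104 and 86.1 CPM, 5.22-fold and 4.61-fold over the others. *Fzd4*, a receptor of vessel-related cells, led in *Rgs5*-high cells with 35.9 and 31.1 CPM, 32.0-fold and 26.3-fold over the others, next to *Ror1*, a *Wnt5a* receptor, with 13.1 and 12.3 CPM. The summed level of 3 endothelial markers was 58.8 and 39.6 CPM in *Rgs5*-high cells, against 1.29 to 4.48 CPM in the other classes. It came mainly from *Emcn*, at 55.6 and 31.6 CPM, with *Pecam1* at 3.27 and 8.01 CPM and *Cdh5* at 0 UMIs, and its part in the *Fzd4* level was not tested. In *Ifitm5*-high cells, *Fzd5* (30.5 and 20.4 CPM) and the coreceptor gene *Lrp5* (16.9 and 21.7 CPM) were called higher.

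R-spondins raise the response to Wnt through Lgr receptors, and 7 of 9 genes of that axis were tested. *Rspo1* (4.33 and 5.65 CPM), *Rspo2* (3.85 and 12.6 CPM) and *Lgr5* (4.12 and 7.88 CPM) were called higher in *Aspn*-high cells. *Rspo3* (46.4 and 31.4 CPM) and *Lgr4* (58.3 and 50.7 CPM) were called higher in *Cnmd*-high cells, and *Lgr6* in *Col10a1*-high cells, at 47.7 and 35.6 CPM, 9.38-fold and 6.23-fold over the others. The counts called higher were thus 3, 2, 1, 0 and 0 in the order of classes used for the receptors, beside 10.9%, 3.3%, 5.76%, 3.43% and 10.7% of all genes. Those called lower were 2, 3, 3, 1 and 3, beside 6.49%, 13.5%, 12.5%, 10.2% and 6.59%. *Rspo2* was higher at day 14 than at day 10 in *Aspn*-high cells, by 1.71 on the log2 scale (interval 1.31 to 2.13).

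Of the 11 genes of transduction and response, 10 were tested, and in that order of classes 2, 2, 2, 2 and 0 were called higher, beside 10.9%, 3.3%, 5.76%, 3.43% and 10.7% of all genes. In the lower direction there were 4, 3, 4, 2 and 1, beside 6.49%, 13.5%, 12.5%, 10.2% and 6.59%. *Tcf7l2* stood at 476 and 378 CPM in *Col10a1*-high cells, 10.2-fold and 7.95-fold over the other classes. *Tcf7* led in *Ifitm5*-high cells, at 66.2 and 74.0 CPM, 32.7-fold and 34.5-fold over the others, and *Lef1* in *Cnmd*-high cells at 3.00 and 4.49 CPM. *Axin2*, the usual target of β-catenin, was called higher in *Ifitm5*-high cells at day 10 only, at 11.3 CPM (24 UMIs), and stood at 3.68 CPM (20 UMIs) there at day 14.

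Of 11 secreted antagonists, 9 were tested, and 5, 1, 1, 2 and 0 were called higher in the same order of classes, beside 10.9%, 3.3%, 5.76%, 3.43% and 10.7% of all genes. Those called lower were 3, 7, 5, 5 and 7, beside 6.49%, 13.5%, 12.5%, 10.2% and 6.59%. *Dkk3* stood at 282 and 338 CPM in *Aspn*-high cells, *Sfrp2* at 129 and 203 CPM, *Sfrp1* at 110 and 85.1 CPM and *Sfrp4* at 38.5 and 12.7 CPM. *Sfrp5* was called higher in *Cnmd*-high cells, at 25.9 and 73.1 CPM. *Frzb* led in *Col10a1*-high cells with 675 and 757 CPM, 3.58-fold and 6.79-fold over the others. *Dkk1* (28.7 and 57.6 CPM) and *Wif1* (225 and 264 CPM) led in *Ifitm5*-high cells, where *Dkk1* was 57.7-fold and 44.7-fold over the other classes. *Sost*, which encodes sclerostin, had 0 UMIs in *Ifitm5*-high cells at day 10 and 93 UMIs, or 17.1 CPM, at day 14.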

How the data were processed

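Single-cell 3′ RNA-Seq was read from the raw count matrices that the authors deposited, with whole-number UMI counts per gene and barcode and no normalization. Per the submitters' processing notes Cell Ranger 3.0 and mm10 were used, whereas the matrix header names 3.1.0, and the labels and the methods name different 3′ kit versions. Cells with 500 to 5000 genes, at most 10% mitochondrial and at most 5% hemoglobin UMIs were kept. No doublet caller was run: cells high for several class markers numbered 1, 117 and 98 and went to the marker they exceeded most. UMIs were summed by class and day and scaled to CPM, with exact Poisson intervals for levels, exact binomial intervals for ratios and Clopper-Pearson intervals for shares. A class at 0 UMIs was set to a floor of 3 UMIs before it could be called. Library totals were 113127788, 144103160 and 195661880 UMIs. The sort and the small day 7 yield limit that day most.

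The 10 members, the class markers and the pathway lists were chosen with earlier results of these data known. Named pathway genes were those called in a class on both days, with up to 4 per list and class by fold. *Axin2* and *Sost* in *Ifitm5*-high cells were named outside this rule. Of 32285 gene IDs, 32158 are in GENCODE M21. Alternatives were other cuts, cell limits, scalings, references, folds and UMI minimums. The computation was tested on simulated data (Python 3.11.15, numpy 2.4.6, scipy 1.17.1, pandas 2.3.3, matplotlib 3.10.9).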

Additional observations from a re-analysis of the deposited data

Results flagged for a closer look

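Cells with a *Ptprc* UMI were left out of the comparisons, and they held some UMIs of the members. The summed level of the 10 members in them was 4.75 CPM at day 7 (239 UMIs in 6570 cells, interval 4.17 to 5.39), 66 CPM at day 10 (4 UMIs in 6 cells, interval 18.0 to 169) and 55 CPM at day 14 (116 UMIs in 173 cells, interval 45.4 to 66.0). All were above the limit that a count of 0 allows, which flagged them. A summed list of neutrophil genes stood in these cells at 286100, 56540 and 173900 CPM.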

How the results depend on the processing

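No paired analysis was possible because each day had 1 library. The number of members called between day 10 and day 14 was 3, and it was 5 with a minimum of 10 UMIs and 5 with a 1.5-fold limit. With all other *Ptprc*-free cells as the reference, the members called higher in a class at day 14 numbered 5 instead of 8, and those called higher in the same class on both days 3 instead of 6. No share of all genes was computed for these counts. *Wnt2b* in *Col10a1*-high cells at day 14 turned from -1.56 to 0.44 on the log2 scale when cells were thinned to 2000 UMIs. Of 567 single values recomputed under the alternatives, 466 stayed within their counting interval, 100 moved beyond it and 1 changed sign. *Wnt4* in *Col10a1*-high cells ran from 2.63 to 3.31 at day 10 and from 1.52 to 2.57 at day 14, *Wnt16* in *Aspn*-high cells from 3.31 to 4.71 and from 2.93 to 4.09, and *Wnt9a* there from 2.29 to 4.41 and from 2.37 to 4.53. No call could be checked in a second library of the same day. Depth limits *Wnt2*, *Wnt2b*, *Wnt7b* and every value of *Rgs5*-high cells most.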
